A study of Homo sapiens with 3 samples.

Results

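The transcripts examined here are those of 43 translation factor genes, which encode the proteins that start and drive protein synthesis on cytoplasmic ribosomes. The genes were chosen by symbol from the initiation factors eIF1, eIF2, eIF2B, eIF3, eIF4 and eIF5 and the elongation factors eEF1 and eEF2, together with EIF2A and EIF6. EIF4G2 was not among them. They were 43 of 19378 protein-coding genes of the nuclear genome in the annotation used. RNA bonded by UV light to HNRNPA0 was recovered by easyCLIP, in which crosslinked protein is immunoprecipitated and its RNA is trimmed, ligated to adapters and sequenced. The samples were 3 replicates of HEK293T cells, a human embryonic kidney line carrying the SV40 large T antigen, with the genotype given as WT. Every replicate was transfected with 750 ng of vector encoding HNRNPA0 with an HA tag and was irradiated at 254 nm with 0.3 J per square centimetre, and its RNA was trimmed with RNase I at 0.02 U per microlitre, so the bait was an expressed, tagged protein. No control library was used here, and the replicates were pooled after the first adapter ligation. The labels do not say whether they came from separate cultures, so their spread may be technical.

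HNRNPA0, of the hnRNP A/B proteins, binds RNA and is known for binding AU-rich stretches of messenger RNA. In initiation, eIF2 brings the initiator transfer RNA to the small ribosomal subunit, eIF2B recharges eIF2 with GTP, eIF3 is the large scaffold on that subunit, and the eIF4 factors bind the cap and unwind the leader. In elongation, eEF1A delivers aminoacyl-transfer RNA, the eEF1 exchange complex recharges eEF1A with GTP, and eEF2 moves the ribosome along. The messenger RNAs of many of these factors are abundant in growing cells, and several of their genes carry small nucleolar RNAs (snoRNAs) in their introns.

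Each list gave peaks with a position, a p-value and a gene ID followed by a whole number taken to be its reads and called the read number below. The lists held 15661 to 17791 distinct peaks, and the read numbers outside the mitochondrial genome summed to 100038, 99141 and 114203 in replicates 1, 2 and 3. Mitochondrial peaks took 62.8%, 63.1% and 48.3% of all read numbers, so replicate 3 stood apart in that share. Overlapping peaks of a gene, from any of the replicates, were joined into regions. Coordinates are on hg38. RNA levels were not measured here, so a read number does not separate binding from the abundance of the transcript.

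One sequence carries a finding of its own, because the highest region of EIF4A2 lies on it. EIF4A2, the gene of an RNA helicase of the cap-binding complex, contains the microRNA hairpin MIR1248, which overlaps the longer snoRNA gene SNORA81. The RefSeq hairpin, 106 nt at chr3:186786672-186786777 on the plus strand of GRCh38.p14, is shown with the letters UAG in capitals, since UAG is the core of motifs described for other hnRNP A proteins. The mature microRNA lies at its 5' end and is shown with its seed, bases 2 to 8, in capitals.
MIR1248 hairpin: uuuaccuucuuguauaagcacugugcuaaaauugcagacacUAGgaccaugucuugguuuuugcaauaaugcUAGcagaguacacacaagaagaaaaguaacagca
hsa-miR-1248: aCCUUCUUguauaagcacugugcuaaa

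UAG occurred 2 times in the hairpin, at bases 42 to 44 and 73 to 75 counted from its 5' end. Of 254 human hairpins of 96 to 116 nt, 64.2% held UAG at least 1 time and 26.0% held it 2 or more times on the strand given, so its presence is common among hairpins. GGG, the shortest run of guanines counted here because the study concerned RNA G-quadruplexes, did not occur in the hairpin, against 77.2% of the 254 hairpins with it. Letters of UAG and GGG can overlap, but not in this hairpin. A match of letters is a description and not a binding site.

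Translation factor transcripts held regions found in all 3 replicates more often than protein-coding genes at large. Such a region was present in 20 of 43 genes (46.5%), against 6.3% of all 19378 protein-coding genes, the 43 included. With peaks of a read number of 5 or more, a setting added after the data were seen, the count was 13 of 43 genes, against 3.8% of all. A peak in any replicate was present in 34 of 43 genes (79.1%), against 29.3% of all protein-coding genes. Among genes with any peak, 58.8% of the translation factor genes had a region in all 3 replicates, against 21.5% of all protein-coding genes. At least 2 such regions were found in 13 of the 43 genes (30.2%), against 2.34% of all. Expression was not used to choose or match any of these genes, and the part of transcript abundance in these shares was not tested.

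The 43 genes together held 1480, 1408 and 1398 of the read numbers in replicates 1, 2 and 3, in 175, 173 and 195 peaks. That was 1.37% ± 0.134 of the nuclear-encoded read number (SD, n = 3). Replicate 3 had the most peaks and the lowest share, at 1.22%. The sum was concentrated: 10 genes held 74.9% ± 1.30 of it, and EEF1A1 alone held 10.6% ± 2.72 (SD, n = 3). Across the 43 genes the summed read numbers of the replicates had Spearman correlations of 0.93, 0.90 and 0.89 for replicates 1 and 2, 1 and 3, and 2 and 3, which run across genes of the same libraries, include the 9 genes at 0 in every replicate and carry no test. Across the 58 regions found in all replicates, described below, they were lower, at 0.68, 0.65 and 0.67.

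**Figure D1:**
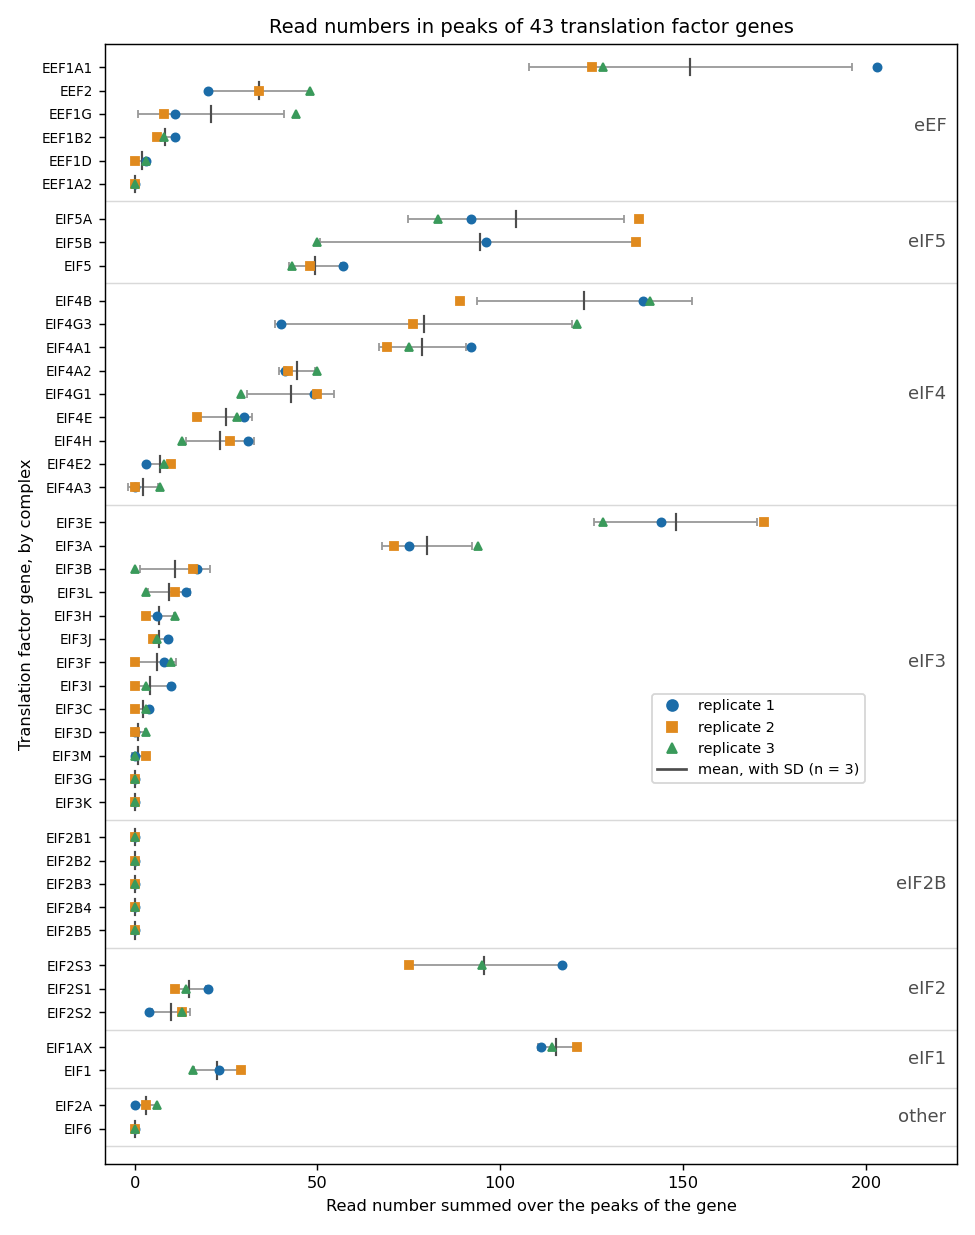
Read number summed over the peaks of each translation factor gene, with genes grouped by complex down the page. Symbols are the 3 replicates, the vertical tick is the mean and the bar is the SD. EEF1A1, EIF3E, EIF4B, EIF1AX and EIF5A had means above 100. The 5 eIF2B genes, to which no gene ID was tied by position, lie at 0.

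Among the factors that act first, EIF1AX stood well above EIF1. Both encode small proteins that bind the small subunit during scanning for the start codon. EIF1AX had summed read numbers of 111, 121 and 114 in replicates 1, 2 and 3, and EIF1 had 23, 29 and 16, so the replicates of the 2 genes did not overlap. Per kb of gene interval the means were closer, at 6.66 for EIF1AX and 5.99 for EIF1. EIF1AX held 4 regions in all replicates. The highest, on the X chromosome from 20136142 to 20136281 on the minus strand, had read numbers of 16, 21 and 19 and lay inside SCARNA9L, a gene annotated there as a small Cajal body RNA-like transcript. The next, from 20125646 to 20125784, had 15, 20 and 19 and lay 1121 nt from the 3' end of the gene. EIF1 had peaks in all replicates but no region shared by the 3.

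The 3 subunit genes of eIF2 differed widely. EIF2S3, which encodes the GTP-binding gamma subunit, had summed read numbers of 117, 75 and 95. EIF2S1, the gene of the alpha subunit that is phosphorylated under stress, had 20, 11 and 14, and EIF2S2, that of the beta subunit, had 4, 13 and 13. EIF2S3 was above both other subunits in every replicate, and per kb of gene interval it averaged 4.01, against 0.573 for EIF2S1 and 0.418 for EIF2S2. The peaks of EIF2S3 were spread along the gene and seldom coincided: it had 13 regions, and only that on the X chromosome from 24073091 to 24073185 was found in all replicates, with 17, 12 and 22. Of its 18 peaks, 17 had a read number of 9 or more, and the other had 3. EIF2S1 had 1 region in all replicates, with 5, 7 and 10, and EIF2S2 had none.

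No peak centre lay in any gene of eIF2B, the exchange factor for eIF2. No gene ID in the 3 lists was tied by position to EIF2B1, EIF2B2, EIF2B3, EIF2B4 or EIF2B5. The lists give no symbols, so peaks listed under the ID of an eIF2B gene but placed elsewhere would not be counted here. One ID of 47 lines, 37 of them inside EIF4G1, was tied to no gene. Whether it names an eIF2B gene was not established. EIF2B3 spans 136074 bp, the second-longest interval of the set. A peak list holds no value below its lowest read number of 3, so a lower amount of crosslinked RNA was not detectable at this depth.

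The eIF3 genes divided into 2 with many peaks and 11 with few or none. EIF3E, the gene of a peripheral eIF3 subunit, had summed read numbers of 144, 172 and 128, and EIF3A, that of the largest subunit, had 75, 71 and 94. Every other eIF3 gene stayed at 17 or less in every replicate. EIF3E therefore held 53.6% of the read number of the group. Its 6 regions in all replicates lay in 2 stretches: 3 had their centres between 18.3% and 28.7% of the way along the gene, with the highest on average at 18, 23 and 21, and 3 between 95.3% and 98.6%. In EIF3A the 3 regions lay between 64.1% and 77.9% of the gene, and that on chromosome 10 from 119050517 to 119050647 had 12, 23 and 13.

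EIF3H and EIF3J held 1 region each, with read numbers of 3, 3 and 5 and of 6, 5 and 3. EIF3L had peaks in all replicates without a shared region, at 14, 11 and 3 in sum. EIF3B, EIF3F, EIF3I and EIF3C had peaks in 2 replicates, EIF3D and EIF3M in 1, and EIF3G and EIF3K in none. EIF3C has a near-identical copy, EIF3CL, and how reads were divided between such copies is not given in the sources used here.

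The eIF4 genes were the group with the most regions, 22 in all replicates over 7 of 9 genes. These were 16.5% of the 133 regions of the group. That share was 25.6% in eEF, 19.6% in eIF5, 16.7% in eIF3, 16% in eIF1 and 7.69% in eIF2. EIF4B, which encodes a stimulator of the eIF4A helicase, had summed read numbers of 139, 89 and 141 and 8 regions. Of its 36 peaks, 19 were centred in the last 10% of the gene. The highest, on chromosome 12 from 53040425 to 53040605, had 13, 17 and 28 and lay 1610 nt from the 3' end, and the last, from 53041970 to 53042069, lay 146 nt from it with 7, 11 and 15.

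The 3 eIF4A paralogs had unequal read numbers. EIF4A1, the main cytoplasmic helicase of cap-dependent initiation, had 92, 69 and 75 and 3 regions, with the highest, on chromosome 17 from 7578441 to 7578587, at 15, 11 and 12. EIF4A2 had 41, 42 and 50 and 3 regions, and each of its replicates was below each of those of EIF4A1. EIF4A3, whose product belongs to the exon junction complex and not to initiation, had no peak in replicates 1 and 2 and 7 in replicate 3. EIF4A1 lines were listed under 3 gene IDs whose peaks lie in the same interval, and the ID with the most lines was used.

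EIF4G1 and EIF4G3 encode paralogous scaffolds that bridge the cap-binding protein and eIF3. EIF4G1 had 49, 50 and 29, with 2 regions, of which that on chromosome 3 from 184334909 to 184335126 ended 232 nt from the 3' end with 7, 7 and 6. EIF4G3, the longest gene of the set at 370606 bp, had 40, 76 and 121 in 12, 21 and 34 peaks, none above 6. Its peaks were scattered: of 56 regions, 3 were found in all replicates, with read numbers of 3 to 5. Per kb of gene interval EIF4G3 averaged 0.213, against 2.06 for EIF4G1.

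EIF4E, the cap-binding protein, had 30, 17 and 28 in sum. These sums include peaks past the 3' end of the gene interval, with 3 in replicate 1 and 4 in replicate 3. The 2 regions of EIF4E found in all replicates, on chromosome 4 from 98881081 to 98881144 and from 98884922 to 98884989, had 11, 6 and 4 and 10, 6 and 4. EIF4E2, a cap-binding homologue known as a repressor, had 3, 10 and 8, and all 4 of its peaks lay in the final 10% of the gene. EIF4H, a small activator of eIF4A, had 31, 26 and 13 and 1 region.

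The 3 eIF5 genes all held a region in every replicate. EIF5A, whose product carries hypusine and helps ribosomes over difficult peptide bonds, held the highest region of the whole set, on chromosome 17 from 7312150 to 7312379, 84 nt from the 3' end, with 34, 24 and 37. It had 3 further regions between 80.9% and 91.8% of the gene, and its summed read numbers were 92, 138 and 83. EIF5B, the GTPase that joins the subunits, had 96, 137 and 50 and 4 regions, between 37.9% and 61.1% of the gene. That on chromosome 2 from 99363645 to 99363865 had 17, 31 and 9, so replicate 2 was high and replicate 3 low. EIF5, the GTPase activator of eIF2, had 57, 48 and 43 over 22 regions, of which only 1 was found in all replicates.

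Among the elongation factors, EEF1A1 dominated. It encodes the main form of eEF1A and had summed read numbers of 203, 125 and 128, with replicate 1 highest. Its 7 regions in all replicates had their centres between 21.2% and 59.3% of the gene, and none of its 36 peaks lay in the final 10%. The highest was on chromosome 6 from 73518698 to 73518846 on the minus strand, with 25, 22 and 23. The region from 73519336 to 73519416 had 29, 7 and 6, and so rested mainly on replicate 1. EEF1A1 has many processed pseudogenes, and the treatment of reads that map to several places is not given in the sources used here. EEF1A2, its paralog of muscle and nerve, had no peak.

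EEF2 had 20, 34 and 48 in sum and EEF1G, which encodes the gamma subunit of the exchange complex, had 11, 8 and 44, so replicate 3 was highest for both. EEF2 had 10 regions and none in all replicates. EEF1G had 2, with read numbers of 4, 3 and 5 and of 4, 5 and 4. Its lines came under 2 gene IDs, of which the fuller was used. The other ID had 8 lines, with 8, 0 and 32 in sum, so under it EEF1G would have no region in all replicates. Which of the 2 IDs names EEF1G was not established, since the lists give no symbols. EEF1B2 had 11, 6 and 8 with 1 region of 12 nt, and EEF1D had peaks in 2 replicates. Of the last 2 genes, EIF2A had peaks in 2 replicates, and EIF6, which keeps the large ribosomal subunit apart from the small, had no peak.

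**Figure D2:**
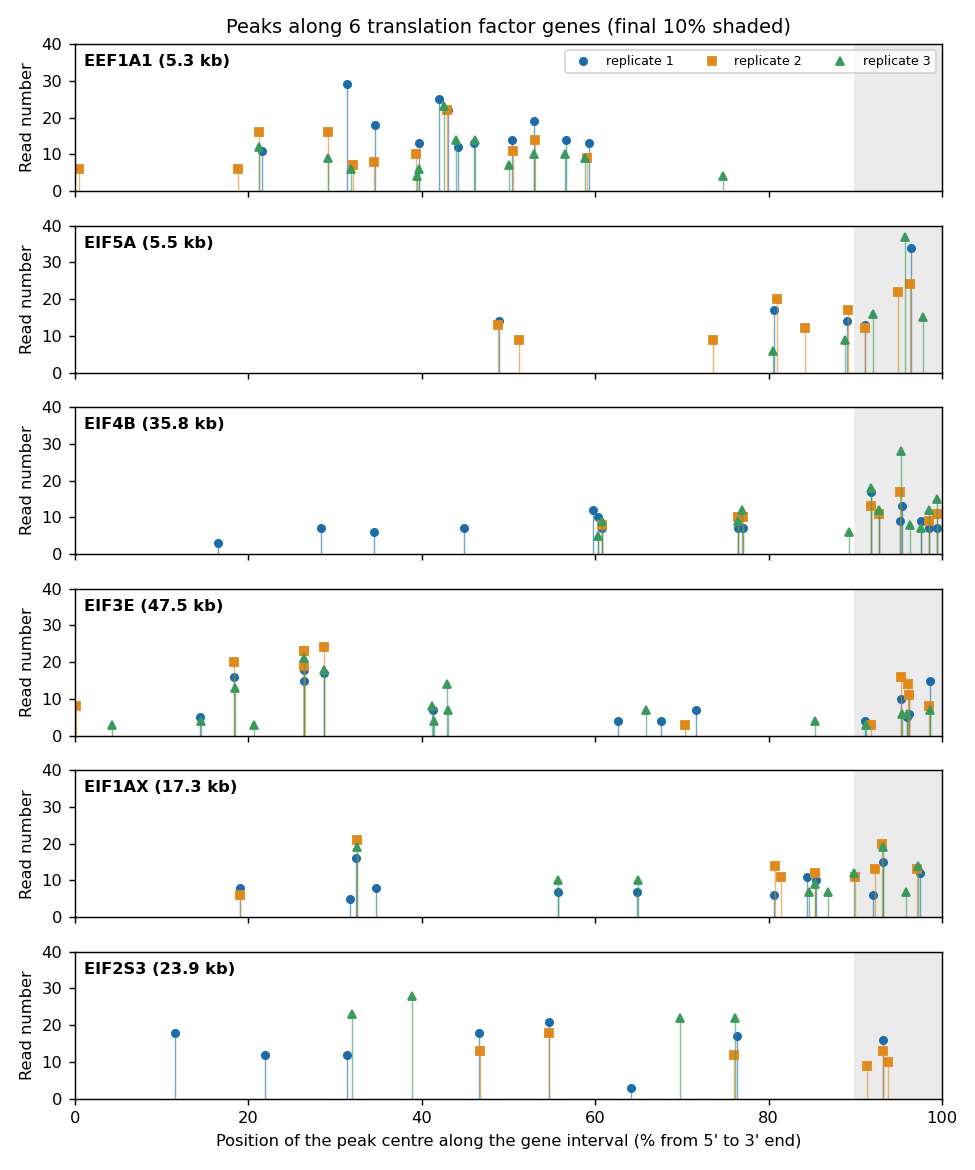
Read number of each peak against the position of its centre along the gene interval, in percent from the 5' to the 3' end, for 6 genes. Symbols and colours mark the 3 replicates and the final 10% is shaded. Peaks of EEF1A1 lie outside the shaded part, while 19 of the 36 peaks of EIF4B lie inside it.

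Set against each other by complex, eIF4 genes had more read number per gene than eIF3 genes. The mean was 47.3 ± 5.17 per eIF4 gene and 21.3 ± 1.05 per eIF3 gene, a difference of 26.0 ± 5.98 that had the same sign in 3 of 3 replicates (SD, n = 3). Per kb of gene interval the means were 3.04 ± 0.284 for eIF4 and 0.511 ± 0.0484 for eIF3, and without the highest gene of each group they were 37.8 ± 3.11 and 10.7 ± 1.46 per gene. The eIF4 gene left out was EIF4B, at 3.44 per kb, while EIF4A1 and EIF4A2 were higher on that scale, at 12.7 and 7.01. With peaks centred in snoRNA intervals left out, the difference per gene was 20.6 ± 5.98. The exact two-sided sign-flip permutation test over the replicates gave p = 0.25 in each case. That is the smallest p that 3 replicates can give, so no difference in this study can pass a threshold of 0.05 by it. By these means eIF4 was not the highest group. The 3 eIF5 genes averaged 82.7 ± 24.5 per gene, the 2 eIF1 genes 69.0 ± 5.29 and the 3 eIF2 genes 40.2 ± 7.01. Per kb of gene interval they averaged 8.38 ± 2.03, 6.33 ± 0.963 and 1.67 ± 0.289 (SD, n = 3). No test was run on these groups.

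The eEF genes averaged 36.2 ± 6.55 per gene, against 21.3 ± 1.05 for eIF3, a difference of 15.0 ± 6.72 with the same sign in 3 of 3 replicates (exact sign-flip permutation p = 0.25, n = 3). The sign was not the same in every replicate once the highest gene of each group was left out. Without EEF1A1 and EIF3E the means were 13.1 ± 6.53 for eEF and 10.7 ± 1.46 for eIF3 per gene, and the difference was -2.92, 0.517 and 9.52 in replicates 1, 2 and 3 (exact sign-flip permutation p = 0.75). Per kb of gene interval, with every gene kept, the means were 6.08 ± 1.28 for eEF and 0.511 ± 0.0484 for eIF3 (SD, exact sign-flip permutation p = 0.25, n = 3). The eEF mean on this scale also rested mainly on EEF1A1, at 28.8, with the next eEF gene, EEF2, at 3.61.

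Small RNA genes inside the translation factor genes held several of the peaks. RefSeq placed 16 snoRNA or scaRNA genes inside 8 of the 43 genes, and 9 of the 16 held a peak centre in at least 1 replicate. In 3 of them, SNORA81 and SNORA63 in EIF4A2 and SCARNA9L in EIF1AX, this was so in all replicates. These intervals held 5.32% ± 0.445 of the read number of the 43 genes (SD, n = 3). Of the 58 regions found in all replicates, 3 had their centre in such an interval (5.17%), against 1.9% of such regions in all protein-coding genes. The annotation table gave no strand for the snoRNA genes.

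EIF4A2 is the gene where this share was highest. Peaks centred in SNORA81, all of them centred in the MIR1248 hairpin printed above too, had summed read numbers of 30, 16 and 21, which was 73.2%, 38.1% and 42.0% of those of EIF4A2 in replicates 1, 2 and 3. The region ran from 186786674 to 186786814, from base 3 of the hairpin to beyond its 3' end, with highest peaks of 20, 16 and 21. Replicate 1 divided it into 2 touching peaks, at bases 3 to 31 and from base 32 on. Each list marks a short stretch inside a peak, and on the hairpin these were bases 19 to 22 and 78 to 81 in replicate 1, 70 to 73 in replicate 2 and 50 to 53 in replicate 3, so they did not fall on the same bases. A peak here can come from the intron of EIF4A2, from the snoRNA or from the microRNA precursor, and the lists do not tell these apart. They also hold 2 lines here under IDs tied by position to SNORA81, with 14 in replicate 1 and 11 in replicate 3. These overlap lines of EIF4A2 and are not in the sums above. SNORA63 in the same gene had 5, 7 and 10. SNORD2, SNORA63B and SNORA4, also in EIF4A2, held no peak centre.

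**Figure D3:**
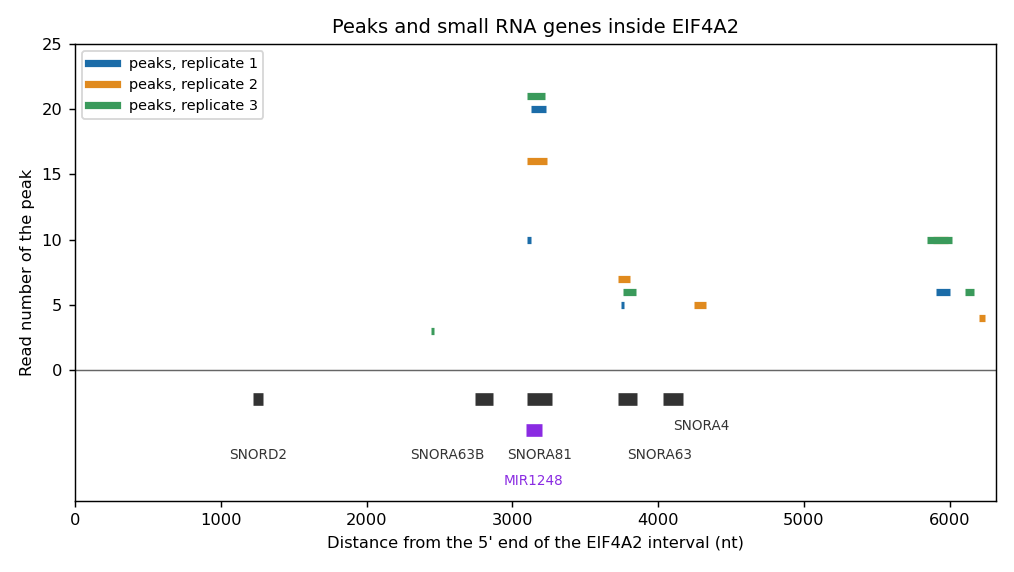
Peaks of EIF4A2 in the 3 replicates, drawn as bars over their extent at the height of their read number, against the distance from the 5' end of the gene in nt. Dark blocks under the axis are snoRNA genes and the violet block is MIR1248. The highest peaks, at 20, 16 and 21, lie over SNORA81 and MIR1248.

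The other 6 small RNA genes with a peak centre had it in 1 or 2 replicates. In EIF4A1, SNORA48 had 10 and 12 in replicates 1 and 3, SNORD10 had 7 and 6 in replicates 2 and 3, and SNORA67 had 7 in replicate 2. SNORD66 in EIF4G1 had 4 and 12 in replicates 1 and 2. SNORA28 in EIF5 had 9 and 8 in replicates 1 and 2. SNORA41 in EEF1B2 had 3 in replicate 2. With all peaks centred in such intervals left out, a setting added after the data were seen, 20 of the 43 genes still held a region in all replicates.

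Peaks of translation factor transcripts recurred between replicates more often than other peaks. The share of their peaks overlapped by a peak of another replicate, averaged over both other replicates, was 46.6% ± 5.18, against 25.5% ± 1.82 for the peaks of all other nuclear genes, with the same sign in 3 of 3 replicates (SD, exact sign-flip permutation p = 0.25, n = 3). When at least 50% of both peaks had to overlap, the shares were 27.7% ± 1.14 and 16.2% ± 1.24, and the difference was 11.5 percentage points in place of 21.1. Their peaks were also less often the weakest: a read number of 3 was found in 21.2% ± 4.58 of them, against 43.9% ± 1.72 of other peaks, and the mean read number was 7.92 ± 0.671, against 6.41 ± 0.0227. With only the 50% of peaks of lowest p-value in each replicate kept, that excess of 1.51 was 0.0212 (exact sign-flip permutation p = 1, n = 3). Within peaks of 3 to 4 the overlap was 23.1% ± 2.39, against 12.5% ± 1.32, and within those of 5 to 9 it was 47.2% ± 1.44, against 36.7% ± 0.865. In peaks of 20 or more it was 87.2% ± 15.5, against 92.1% ± 1.25, with 6, 13 and 10 such peaks in the translation factor genes. The number of peaks per gene, which also raises the chance of overlap, was not held equal. Of all 337 regions of the set, 58 were found in all replicates (17.2%), against 5.94% of the regions of protein-coding genes.

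**Figure D4:**
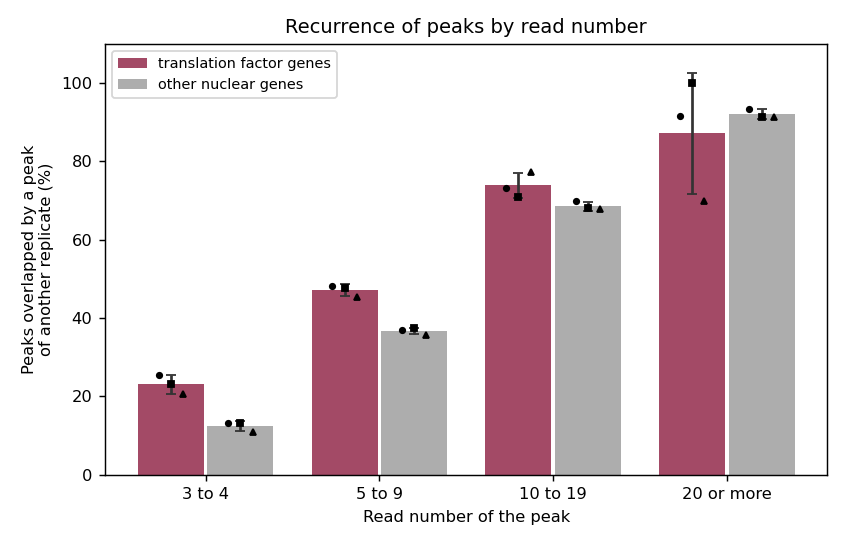
Share of peaks overlapped by a peak of another replicate, averaged over both other replicates, in percent, by the read number of the peak, for translation factor genes and for other nuclear genes. Bars are means, symbols are replicates 1, 2 and 3 and error bars are SD (n = 3). In peaks of 3 to 4 the means are 23.1% and 12.5%, and in peaks of 20 or more they are 87.2% and 92.1%.

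Peaks of translation factor transcripts were less concentrated at gene ends than peaks of other genes. The final 10% of the gene interval held 21.0% ± 2.84 of their peaks, against 32.2% ± 0.645 of the peaks of other protein-coding genes, lower in 3 of 3 replicates (SD, exact sign-flip permutation p = 0.25, n = 3). EIF4G3 had 1 of 67 peaks there and EEF1A1 had 0 of 36. Without both the share was 25.6% ± 2.42, and with each gene left out in turn it ranged from 18.7% without EIF4B to 23.7% without EIF4G3. EIF5, with 0 of 29, and EIF1, with 0 of 13, also had no peak in the final 10%, while EIF4H had 8 of 12 and EIF3E 15 of 43. Among regions found in all replicates the difference was smaller: 21 of 58 lay in the final 10% (36.2%), spread over 13 genes, against 40.1% of such regions in all protein-coding genes. Gene intervals include introns, and exons and introns were not told apart.

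**Figure D5:**
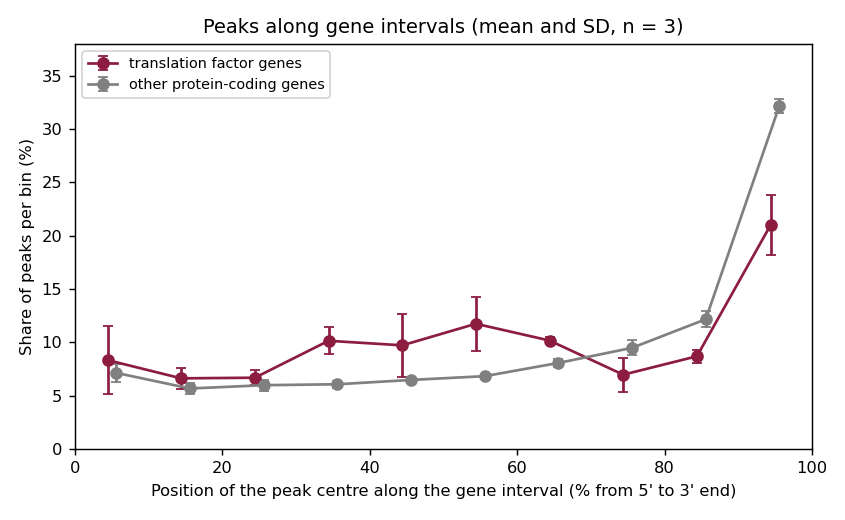
Share of peaks in each 10% of the gene interval, in percent, against the position from the 5' to the 3' end, for translation factor genes and other protein-coding genes. Points are means and bars are SD over the replicates (n = 3). In the final 10% the means are 21.0% and 32.2%.

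Of 42 other genes of translation and its control, 6 held a region in all 3 replicates, against 20 of the 43 factor genes and 6.3% of all protein-coding genes. Among 22 further initiation paralogs and regulators there were 4. EIF4EBP2, an inhibitor of the cap-binding protein, had summed read numbers of 116, 139 and 119 and 6 regions, and PABPC1, the poly(A)-binding protein, had 105, 88 and 93 and 2 regions. PDCD4, an inhibitor of eIF4A, had 25, 40 and 49, and EIF2AK2, the kinase PKR that phosphorylates eIF2, had 30, 38 and 34. Among 6 termination and recycling genes there were 2, GSPT1, the release factor eRF3a, with 65, 36 and 64, and the recycling ATPase gene ABCE1 with 25, 49 and 36. None of 9 mitochondrial translation factor genes held a region in all replicates, although 6 had a peak, and none of 5 other elongation genes did. With a share of 6.3% over all protein-coding genes, groups this small may well hold none, so these counts show no difference.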

How the data were processed

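The authors deposited 1 peak list per replicate, and the submitters' processing notes name hg38, bedtools and deepTools without a version. Adapters carried molecular identifiers, per the labels, but whether reads were collapsed by them, the aligner and the peak caller are not given in the sources used here. A deposited line holds a p-value per peak, all under 0.05 with no adjustment stated, and a name that ends in the read number. A gene ID was tied to the smallest RefSeq gene (GRCh38.p14) holding at least 80% of its peak centres, with microRNAs and loci without a given symbol set aside, and the ID with the most lines stood for each gene. The 80% was set after the data were seen; a limit of 90% lost EIF4E. For the shares over all nuclear peaks, equal intervals under several IDs were counted once. Regions merge peaks of a gene overlapping by 1 bp or more. Gene intervals replaced the exon annotation.

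Reads may be counted in adjoining peaks, so sums are descriptions and no counting interval is given. The members, lists and tests were chosen with earlier results of these data known. All 43 members are accounted for, with values in each replicate for those with a region in all 3, and non-members come from a written list, with those holding such a region named. Merging and overlap were tested on simulated data, where 200 of 200 genes gave the simulated regions. Python 3.11.15, pandas 2.3.3, numpy 2.4.6, scipy 1.17.1 and matplotlib 3.10.9 were used. Alternatives varied the peaks, replicates, overlap, gene assignment and scale.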

Additional observations from a re-analysis of the deposited data

Results flagged for a closer look

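A second gene ID, not tied to a single gene, listed peaks inside EIF4G1 that the counts above do not use. It had 47 lines, 37 of them inside EIF4G1. Which gene this ID names, and whether it is one of the 43, was not established, since IDs were tied by position and the lists give no symbols. Of its lines there, 8 overlapped no line of the ID used, with read numbers summing to 17, 9 and 0 in replicates 1, 2 and 3.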

How the results depend on the processing

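Since no exact p here can pass 0.05, no result has a call that a setting could end, and only directions and sizes can be compared. The mean of none of the results with a direction changed sign under the settings run. Genes with a region in all 3 replicates numbered 13 when peaks needed a read number of 5 or more, against 20. The other settings that required all 3 gave 15 to 20, of which 18 with the ID of fewest lines for each gene. With each replicate left out, and both others required, the count was 21 to 25. With a region in 2 or more replicates enough, it was 29. The share of the nuclear-encoded read number was 1.61% in the stricter 50% of each list, 1.71% with peaks of 5 or more and 1.23% with the ID of fewest lines for each gene, against 1.37%. The settings of a read number of 5 or more and of fewest lines were added after the data were seen. The overlap between replicates was 27.7% when 50% of both peaks had to overlap, against 16.2% in other genes. The excess in mean read number, 1.51, was 0.0212 in the stricter 50% of each list, and that of eEF over eIF3, 15.0, was 2.37 without EEF1A1 and EIF3E, with replicate 1 at -2.92. With the highest peak per gene, a smaller quantity by construction, eIF4 exceeded eIF3 by 4.36 and eEF exceeded eIF3 by 2.66. Otherwise the cause was not tested. With 2 replicates the smallest exact p is 0.5. No paired analysis was possible because there is no second group of samples to pair by replicate number; the sign-flip tests compare sets of genes within each replicate.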
